A study of Mus musculus with 6 samples.

Results

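The genes described here encode the parts of focal adhesions and of the contractile actin filaments attached to them. They are 42 symbols listed by name, with earlier results of these data known, and all 42 were found among the 55809 gene symbols of the table. RNA was sequenced from 410.4 cells, a mouse breast cancer cell line, kept for 2 days in DMEM with 0.5% fetal calf serum and antibiotics. In 3 libraries (control) the medium was plain DMEM with this serum, and in the other 3 (NETs) the same medium had been used to isolate neutrophil extracellular traps, the webs of chromatin and granule proteins that neutrophils release. Both groups are 1 cell line with no genetic change named in the labels, the origin of the neutrophils is not given in the labels, and the traps cannot be told apart from other components of the conditioned medium. The libraries held 31119105 to 64431811 counts. Whether the replicates were separate cultures is not said in the labels, so the p-values speak of the spread among these 6 libraries, which may be technical only. The title of the series concerns TGFβ activation by the traps, and several genes described here are known targets of that pathway.

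Focal adhesions are the plaques at which integrins, the receptors for the extracellular matrix, are tied to actin. Talin and kindlins switch integrins on, vinculin, alpha-actinin and filamin fasten the filaments, and the kinases FAK and Src with scaffolds such as paxillin and p130Cas pass signals inward. Non-muscle myosin II pulls on the filaments, and tropomyosins, calponins and caldesmon set which filaments it can use. In the mammary gland the smooth muscle forms of these proteins mark myoepithelial cells and myofibroblasts.

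Adhesion and actin genes were mostly higher in NET-conditioned medium, and mostly by a small amount. Of the 42 members 36 passed the filter on low counts; 26 of them rose, 1 fell and 9 did not pass the test (quasi-likelihood test of edgeR, p-values adjusted by Benjamini-Hochberg over all genes). Of all 13956 genes tested 38.9% were called, 20.2% higher and 18.7% lower. Each of the 36 tested members had at least 140 counts in every library, so that none was tested only because of the group in which it was higher.

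Most of the called members changed by less than 1.5-fold. There were 17 such genes, 6 changed between 1.5-fold and 2-fold, and 4 rose at least 2-fold, while no member fell as much; over all genes tested 3.65% were called and at least 2-fold higher and 2.31% were called and at least 2-fold lower. These 4 were Nedd9, Palld, Fermt1 and Pdlim7. The median log2 fold change of the tested members was 0.23, beside a median of -0.0039 over all genes tested. At 30 of the 36 members no control library overlapped a NETs library in CPM (counts scaled to a common library depth with TMM factors), 27 of them higher and 3 lower with NETs (Tns4, Pxn and Fermt2). Over all genes tested this share was 49.0%, with 24.4% higher and 24.5% lower. Summed over all members the level was 9593, 9751 and 9976 CPM in control replicates 1 to 3 and 12653, 12663 and 12834 CPM in NETs replicates 1 to 3. The summed level was thus higher in every NETs library than in any control library. Scaled by library size alone, 22 members rose and 3 fell, while over all genes the share of higher calls went from 52.0% to 35.9%.

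**Figure D1:**
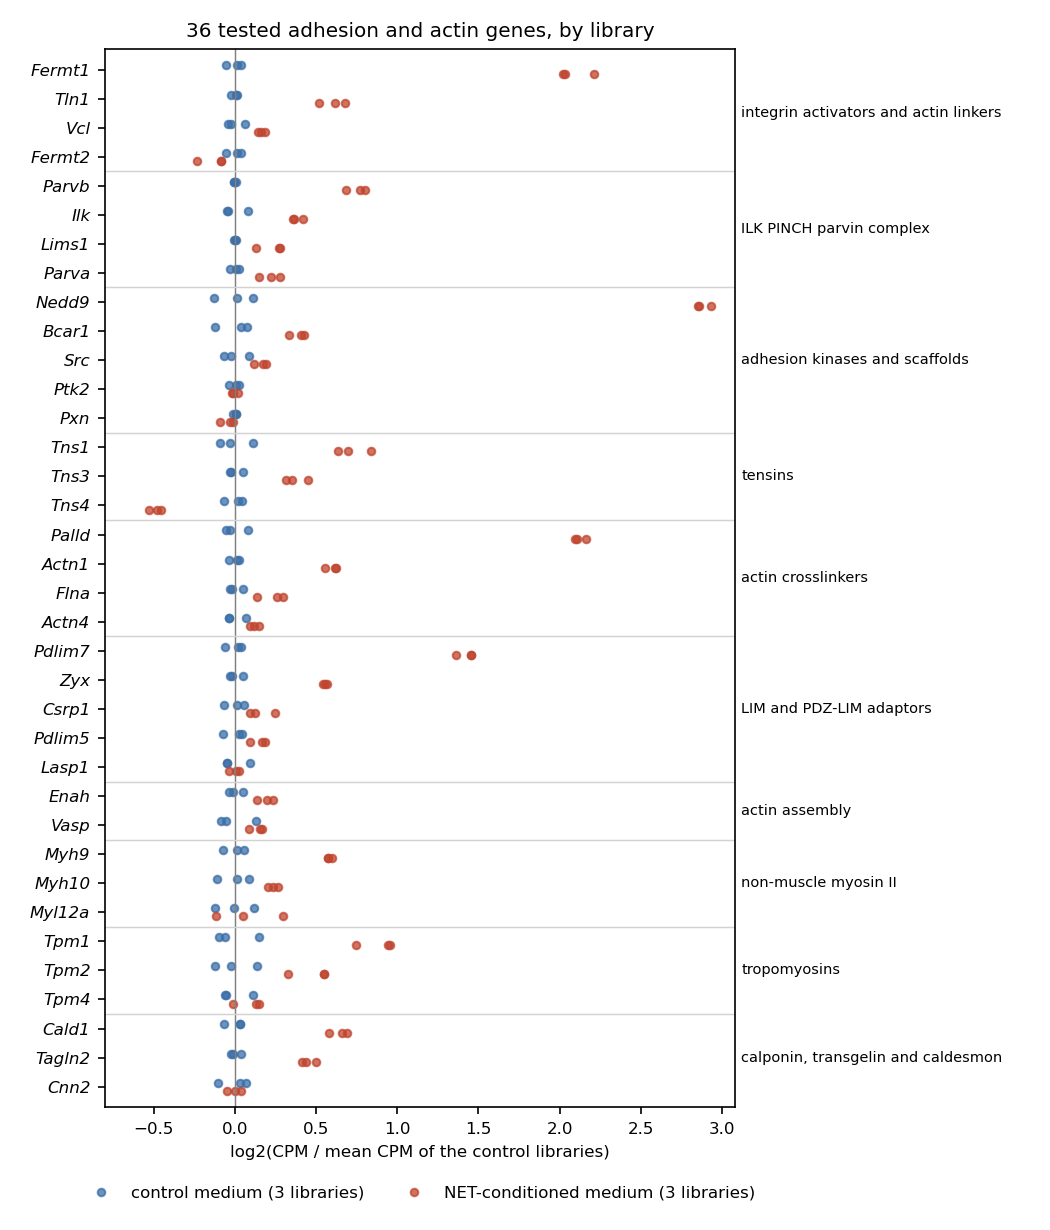
Level of each of the 36 tested members in each library, as log2 of its CPM over the mean of the control libraries (horizontal axis), grouped by role from top to bottom. Blue points are the 3 control libraries and red points the 3 NETs libraries; Nedd9, Palld, Fermt1 and Pdlim7 lie farthest to the right, and Tns4 is the called member to the left of 0.

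The 4 genes that rose at least 2-fold come from different parts of the adhesion, a scaffold, an actin crosslinker, an integrin activator and a LIM adaptor. Their upstream sequences are shown because these members carry the largest changes. RefSeq's promoter windows (GRCm38.p6) matched 36 of the 42 members, with 45 windows of 300 bases in all, and the 250 bases before each start site are printed here, 5′ to 3′ on the strand of the gene. All 6 windows lie on the minus strand: Fermt1 at chr2:132946037-132946286, Nedd9 at chr13:41359002-41359251, Pdlim7 at chr13:55513447-55513696, and Palld at chr8:61591140-61591389, chr8:61760090-61760339 and chr8:61902708-61902957, called Palld start A, B and C. Capitals mark matches, on either strand, to CAGAC (a SMAD-binding element), TGAGTCA or TGACTCA (AP-1), GGAATG (TEAD) and the CArG box of the serum response factor SRF. The CArG box was searched as CC, then 6 bases of A or T, then GG, with exact matches only. No marked match overlaps another.
Nedd9: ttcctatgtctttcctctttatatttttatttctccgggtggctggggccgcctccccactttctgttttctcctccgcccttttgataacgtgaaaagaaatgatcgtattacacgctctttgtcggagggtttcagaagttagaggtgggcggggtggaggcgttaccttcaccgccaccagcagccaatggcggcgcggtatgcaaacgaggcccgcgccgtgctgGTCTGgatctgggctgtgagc
Palld start A: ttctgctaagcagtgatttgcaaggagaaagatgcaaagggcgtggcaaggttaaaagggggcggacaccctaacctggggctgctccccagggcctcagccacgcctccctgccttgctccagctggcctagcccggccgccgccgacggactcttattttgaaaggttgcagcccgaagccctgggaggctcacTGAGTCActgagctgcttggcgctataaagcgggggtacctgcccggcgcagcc
Palld start B: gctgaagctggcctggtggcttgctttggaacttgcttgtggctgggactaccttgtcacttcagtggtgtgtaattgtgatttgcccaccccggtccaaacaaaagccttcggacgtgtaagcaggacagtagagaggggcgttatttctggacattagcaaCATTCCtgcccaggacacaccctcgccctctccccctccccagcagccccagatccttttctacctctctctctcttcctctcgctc
Palld start C: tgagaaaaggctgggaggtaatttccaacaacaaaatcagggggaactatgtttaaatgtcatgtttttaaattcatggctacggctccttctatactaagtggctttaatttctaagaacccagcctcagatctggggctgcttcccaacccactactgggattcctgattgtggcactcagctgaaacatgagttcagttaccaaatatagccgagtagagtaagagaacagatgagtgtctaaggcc
Fermt1: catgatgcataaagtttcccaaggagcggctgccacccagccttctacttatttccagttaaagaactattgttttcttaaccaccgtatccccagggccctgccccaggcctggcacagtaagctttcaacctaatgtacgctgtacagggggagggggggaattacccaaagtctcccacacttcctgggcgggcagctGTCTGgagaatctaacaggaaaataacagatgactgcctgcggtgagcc
Pdlim7: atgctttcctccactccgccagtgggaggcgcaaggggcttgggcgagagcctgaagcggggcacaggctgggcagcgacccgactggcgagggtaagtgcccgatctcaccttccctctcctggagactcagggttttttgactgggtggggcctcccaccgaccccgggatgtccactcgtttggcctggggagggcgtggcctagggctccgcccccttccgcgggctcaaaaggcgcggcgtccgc
A CAGAC match begins 21 bases before the start site of Nedd9 and 49 bases before that of Fermt1. An AP-1 match begins 54 bases before start A of Palld and a TEAD match 87 bases before its start B. Pdlim7 and start C of Palld have none of the 4 motifs in the stretch shown. In the 50 bases after the start site, which are not printed, CAGAC also occurs at position 37 of Fermt1, 35 of Palld start B and 19 of Palld start C. Such matches are frequent: of 32851 promoter windows of 300 bases 49.6% hold CAGAC, 14.7% the TEAD motif and 5.20% an AP-1 motif, and of the 45 members' windows 22, 10 and 4 do. The gene counts do not tell which start site of Palld was used.

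Among the activators and linkers of integrins the kindlin genes went apart. Fermt1, the gene of kindlin-1, the kindlin of epithelia, had 83.5, 79.6 and 84.9 CPM in control replicates 1 to 3 and 382, 336 and 338 CPM in NETs replicates 1 to 3. Every NETs library lay far above every control library, and the gene rose 4.26-fold (log2 fold change 2.09 ± 0.0576 SE, adjusted p = 2.62e-14). Fermt2, which encodes the widely expressed kindlin-2, had means of 83.9 ± 2.66 CPM (control) and 76.5 ± 4.34 CPM (NETs; ± SD, n = 3) and did not pass the test (adjusted p = 0.0657), though its groups did not overlap. It was called lower with upper-quartile factors (adjusted p = 0.0329), with library size alone (0.0060) and with the replicate number as a block (0.0340). Tln1, the talin gene, had 313, 304 and 312 CPM in control medium and 495, 443 and 475 CPM with NETs. It rose 1.52-fold (adjusted p = 5.23e-08), and its groups lay clear of each other. Vcl, the vinculin gene, rose 1.12-fold from 172 ± 6.92 to 193 ± 3.01 CPM (adjusted p = 0.0112). This call was lost without control replicate 1 (adjusted p = 0.0606) and with library size alone (0.0931), and 25.5% of the exon length of Vcl is shared with Ap3m1 on the other strand.

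The 4 members chosen from the complex of integrin-linked kinase, PINCH and parvin, which ties kindlin-bound integrins to actin, rose. Of its other genes on the lists, Lims2 (adjusted p = 0.369) and Rsu1 (adjusted p = 0.737) did not pass the test and Parvg was not tested. Parvb, the beta-parvin gene, had 28.0, 27.9 and 28.2 CPM in control medium and 48.9, 45.1 and 47.8 CPM with NETs. It rose 1.69-fold (adjusted p = 1.80e-08), the largest change of the 4, with almost no spread among the control libraries. Ilk, the gene of the pseudokinase at the centre of the complex, rose 1.30-fold from 92.4 ± 4.75 to 120.3 ± 2.72 CPM (adjusted p = 1.40e-05). Its value is uncertain, because 76.7% of its exon length overlaps Taf10 on the other strand and no source used here gives the strand setting of the counting. For Lims1, the PINCH1 gene, the rise was 1.17-fold, from 123 ± 0.482 to 144 ± 8.15 CPM (adjusted p = 0.00158). Parva, the alpha-parvin gene, rose 1.16-fold from 119 ± 2.18 to 139 ± 6.20 CPM (adjusted p = 0.00195).

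The scaffold gene Nedd9, whose product belongs to the p130Cas family and is phosphorylated by FAK and Src, had the largest change of any member. It had 18.5, 20.4 and 21.9 CPM in control replicates 1 to 3 and 147, 146 and 154 CPM in NETs replicates 1 to 3. Every NETs library lay far above the control libraries, which were close together, and the gene rose 7.38-fold (log2 fold change 2.88 ± 0.0638 SE, adjusted p = 1.36e-15). Bcar1, the p130Cas gene itself, rose 1.31-fold from 153 ± 10.7 to 201 ± 6.86 CPM (adjusted p = 2.40e-05). Of the 2 kinase genes among the members whose products bind these scaffolds, 1 rose, by little. Ptk2b, a further kinase gene on the other lists, rose 1.34-fold from 49.4 ± 0.650 to 66.3 ± 2.49 CPM (adjusted p = 6.00e-06). Src rose 1.12-fold from 139 ± 7.90 to 155 ± 3.99 CPM (adjusted p = 0.0203), a call that was lost without control replicate 1 (adjusted p = 0.122), without NETs replicate 2 (0.0607) and with library size alone (0.169). Ptk2, the FAK gene, had 189.9 ± 3.99 and 189.3 ± 2.56 CPM (log2 fold change -0.0045 ± 0.0452 SE, adjusted p = 0.951). Pxn, the paxillin gene, had 347 ± 1.97 and 336 ± 9.23 CPM and did not pass the test (adjusted p = 0.490). Its paralogue Tgfb1i1, the gene of Hic-5, had 0 to 6 counts in each library and was not tested.

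The tensins, which bind actin at one end and integrin tails at the other, moved in different directions. Tns4, the gene of the short tensin cten that lacks the actin-binding part, was the only tested member called lower. It had 817, 882 and 868 CPM in control medium and 592, 614 and 624 CPM with NETs. All NETs libraries lay below all control libraries, a 1.40-fold lower level (log2 fold change -0.49 ± 0.0491 SE, adjusted p = 5.23e-07). The longer tensin genes rose. Tns3 rose 1.30-fold from 213 ± 6.78 to 276 ± 13.4 CPM (adjusted p = 1.40e-05). Tns1, at a low level, rose 1.66-fold from 6.84, 7.87 and 7.14 CPM to 11.3, 11.8 and 13.04 CPM (adjusted p = 1.74e-05).

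Among the actin crosslinkers, Palld, the gene of palladin, a scaffold of stress fibres that binds alpha-actinin, had the largest change. It had 20.6, 20.3 and 22.2 CPM in control medium and 94.4, 90.0 and 90.6 CPM with NETs. The libraries of each group lay close together, and the gene rose 4.35-fold (log2 fold change 2.12 ± 0.0579 SE, adjusted p = 2.15e-14). Actn1, an alpha-actinin gene, had 536, 557 and 559.7 CPM in control medium and 849, 811 and 845 CPM with NETs. It rose 1.52-fold (adjusted p = 2.27e-08), with no overlap of the groups. Actn4, the other non-muscle alpha-actinin gene, had 469 ± 19.4 and 510.1 ± 9.39 CPM and did not pass the test (adjusted p = 0.0596), although it did in DESeq2 (0.0358), with a filter of 1 CPM in 3 libraries (0.0485), with the replicate number as a block (0.0398) and without control replicate 3 (0.0204). Flna, the filamin A gene, had 1042, 987 and 998 CPM in control medium and 1240.7, 1109.9 and 1209.8 CPM with NETs. It was the most highly counted member in control medium and rose 1.18-fold (adjusted p = 0.00207).

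Of the LIM-domain adaptors Pdlim7, whose product Enigma binds alpha-actinin and tropomyosin, rose most. It had 86.9, 91.7 and 92.8 CPM in control medium and 232, 248 and 247 CPM with NETs. The groups were far apart, and the gene rose 2.68-fold (log2 fold change 1.42 ± 0.0499 SE, adjusted p = 6.93e-13). Zyx, the gene of zyxin, which gathers at strained stress fibres, had 166, 174 and 165 CPM in control medium and 247, 245 and 249.1 CPM with NETs. It rose 1.47-fold (adjusted p = 4.70e-08) and varied little among the NETs libraries. Pdlim5 rose 1.11-fold from 91.2 ± 4.05 to 101 ± 3.34 CPM (adjusted p = 0.0301). Csrp1, a cysteine-rich LIM protein gene, also rose 1.11-fold, from 69.4 ± 2.94 to 77.3 ± 4.40 CPM (adjusted p = 0.0397). These 2 small changes were the least stable: leaving out control replicate 2 or NETs replicate 3 ended either call, as did upper-quartile factors, library size alone and the absence of a low-count filter. The call of Pdlim5 was also lost without NETs replicate 1, and that of Csrp1 without control replicate 1 or NETs replicate 2. Lasp1, a LIM and SH3 adaptor gene, had 382 ± 22.1 and 383 ± 8.36 CPM (adjusted p = 0.987), and Pdlim1 had 1 to 8 counts in each library and was not tested.

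The actin assembly genes of the Ena/VASP family, whose products elongate filaments at adhesions, counted 1 that rose among the 2 members. Enah, the Mena gene, rose 1.14-fold from 197 ± 6.11 to 225 ± 7.50 CPM (adjusted p = 0.00436). Vasp had 236 ± 19.1 and 259.7 ± 7.61 CPM and did not pass the test (adjusted p = 0.0668), but passed without control replicate 2 (0.0077), the highest of the control libraries at 258 CPM.

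Both myosin II heavy chain genes among the members rose, and the light chain gene that could be tested, Myl12a, did not pass. Myh9, the heavy chain gene of non-muscle myosin IIA, had 759, 716 and 783 CPM in control medium and 1119.7, 1138 and 1118 CPM with NETs. It rose 1.496-fold (adjusted p = 6.43e-08), and the NETs libraries lay within a narrow range. Myh10, the heavy chain gene of myosin IIB, rose 1.18-fold from 339.7 ± 22.7 to 399.6 ± 8.35 CPM (adjusted p = 0.00200). Myl12a, a regulatory light chain gene, had 95.4 ± 7.89 and 101 ± 14.7 CPM and did not pass the test (adjusted p = 0.503). Its log2 fold change of 0.09 turned to -0.03 without NETs replicate 1, and reads of Myl12a may be split with its close copy Myl12b. Myl9, the light chain gene of smooth muscle, had 4 counts in NETs replicate 3 and 0 in the other libraries. A count of 0 allows up to 6 counts (3 fragments, as mates appear to have been counted separately), or 0.0902 CPM in control replicate 1 and 0.199 CPM in NETs replicate 2, and covers counting error only.

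Of the tropomyosins, the coiled proteins that wrap actin filaments, Tpm1 rose most. It had 509, 495 and 588 CPM in control medium and 889, 1029.9 and 1019 CPM with NETs. The lowest NETs library lay well above the highest control library, and the gene rose 1.85-fold (log2 fold change 0.88 ± 0.0705 SE, adjusted p = 1.22e-07). Tpm4 had 449 ± 30.5 and 477 ± 28.5 CPM and did not pass the test (adjusted p = 0.257), although it did without control replicate 3 (0.0477). Tpm2, a minor member here, rose 1.39-fold from 3.18 ± 0.290 to 4.43 ± 0.379 CPM (adjusted p = 0.0126), a call that was lost without NETs replicate 3 (0.0633). Cald1, the gene of caldesmon, which binds actin and tropomyosin and holds back myosin, had 771, 823 and 826 CPM in control medium and 1207, 1303 and 1273 CPM with NETs. It rose 1.56-fold (adjusted p = 2.80e-08) and was the most highly counted member with NETs. Tagln2, the gene of the non-muscle transgelin, had 439.5, 436 and 456 CPM in control medium and 627, 591 and 602 CPM with NETs, and rose 1.37-fold without overlap (adjusted p = 8.62e-07). Cnn2, the non-muscle calponin gene, had 132 ± 7.97 and 132 ± 3.98 CPM (adjusted p = 0.969).

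The smooth muscle forms were close to absent in both media. Acta2, the smooth muscle actin gene and the usual mark of myofibroblasts, had 2, 4 and 0 counts in control replicates 1 to 3 and 14, 0 and 14 counts in NETs replicates 1 to 3. Tagln, the SM22 gene, had 0, 4 and 2 counts in control medium and 4, 5 and 11 counts with NETs, and 62.4% of its exon length overlaps another gene on the other strand. Cnn1, the smooth muscle calponin gene, had 12, 6 and 2 counts in control medium and 2, 6 and 4 counts with NETs. Without a low-count filter none of the 6 untested members was called. Summed over the libraries of a group, Acta2 had 6 counts in control medium and 28 with NETs, Tagln 6 and 20, and Cnn1 20 and 12. Whether cells with these smooth muscle forms contributed to the values of the other members was not tested.

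Epithelial markers were present and markers of other cells were mostly at or near 0. All 6 epithelial markers (Epcam, Krt8, Krt18, Krt7, Krt19 and Cdh1) were tested, 2 of them called higher and 2 lower, with summed levels of 4151 to 4431 CPM in control medium and 4279 to 4497 CPM with NETs. The 5 myoepithelial markers summed to 8.67 to 9.78 CPM and 101 to 111 CPM. Most of the difference came from Krt14, a basal keratin gene, which rose 16.2-fold from 6.33 ± 0.569 to 102 ± 5.44 CPM (adjusted p = 1.11e-16). Krt17 rose from 0.701 to 1.47 CPM (adjusted p = 0.0252), while Krt5 and Trp63 (not called) had at most 1.69 CPM in any library and Oxtr had at most 0.0902 CPM. The 7 markers of smooth muscle and pericytes summed to 47.2 to 52.2 CPM and 89.4 to 95.96 CPM, most of it from Mcam, which rose 2.28-fold (adjusted p = 4.63e-11). Of the others Rgs5 rose from 0.0824 to 1.39 CPM (adjusted p = 5.58e-07), Notch3 fell from 12.1 to 6.79 CPM (adjusted p = 3.95e-05), Cspg4 was not called, and Myh11, Des and Pdgfrb had at most 0.0885 CPM. The 7 fibroblast markers summed to 42.8 to 48.7 CPM and 59.2 to 67.9 CPM, most of it from Pdgfra (not called). Col1a1 rose from 1.18 to 13.4 CPM (adjusted p = 2.34e-11). The other collagen genes of this list, Col1a2 and Col3a1, were not tested and had at most 0.156 and 0.0442 CPM in any library. Dcn, Lum and Thy1 were at 0 in all libraries. The 11 neutrophil markers summed to 1.76 to 2.12 CPM and 2.98 to 3.37 CPM. S100a8, which epithelial cells can also express, rose from 1.38 to 2.63 CPM (adjusted p = 0.00136) and made up most of this difference, Cxcr2 was not called, and the other 9 were not tested, with Elane, Camp, Ngp, Retnlg and Csf3r at 0 in all libraries. The part of these differences in the members' values was not tested, and in bulk RNA fewer cells of a kind and less RNA per cell cannot be told apart.

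Levels of different genes were set side by side per kb of exon length. The exon length of a gene in the deposited table need not be that of the transcripts expressed, so this comparison is rough. The most abundant members in control medium were Tagln2 (213 CPM per kb, and 291 with NETs), Tns4 (166 and 118) and Flna (107 and 125). In control medium the level of Tns4 lay above those of Flna, Tpm4 (105) and Actn1 (99.6). With NETs, Tpm1 and Actn1 both stood at 151 CPM per kb, above Tns4. Fermt1 went from 14.5 to 61.7 CPM per kb, past Tln1, which went from 31.6 to 48.1, and Pdlim7 from 18.7 to 50.1. Nedd9 and Palld started among the lowest members, at 3.18 and 2.05 CPM per kb, and reached 23.4 and 8.90. Only Tns1 (0.442) and Tpm2 (1.09) were lower than these 2 in control medium among the tested members.

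**Figure D2:**
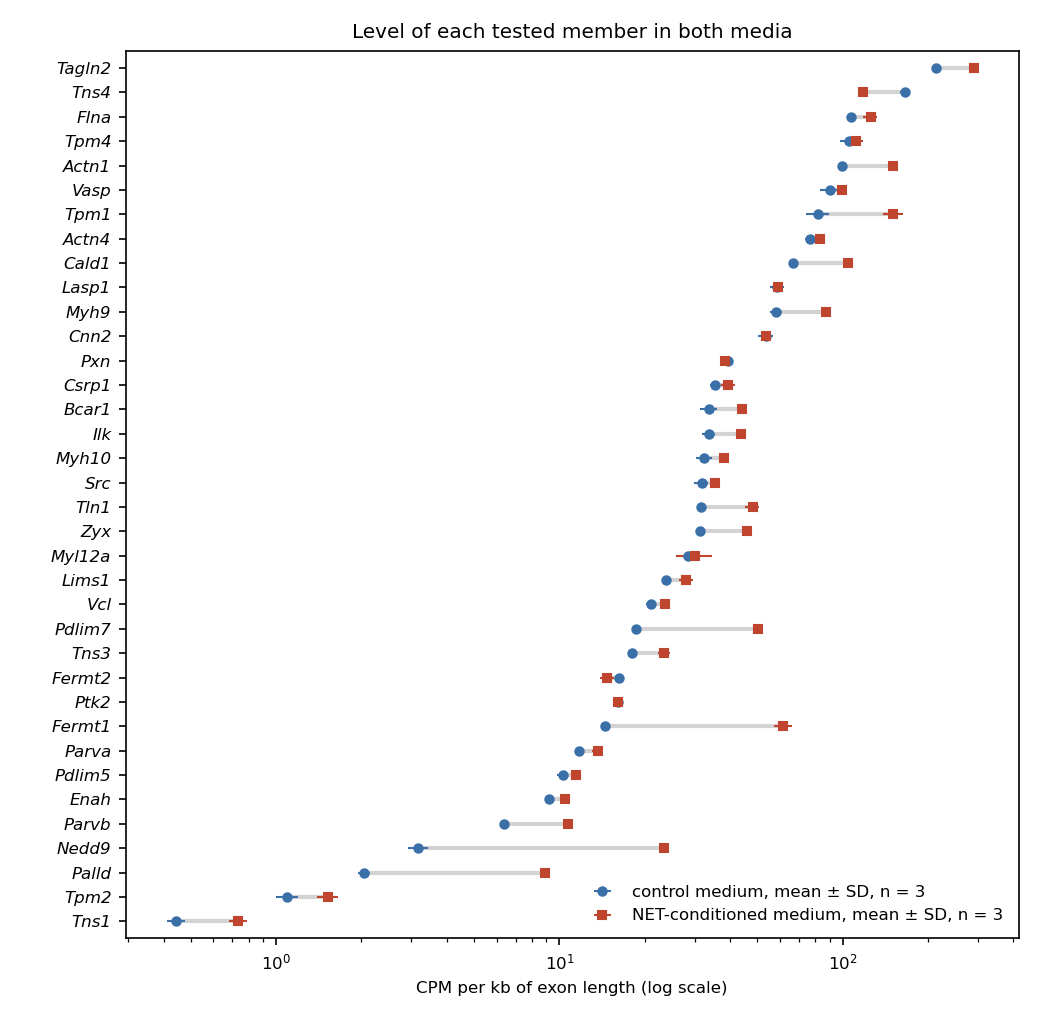
Level of the 36 tested members in control medium (blue circles) and NET-conditioned medium (red squares), in CPM per kb of exon length on a log axis, as mean ± SD of 3 libraries, ordered by the control level. The long grey lines belong to Fermt1, Pdlim7, Nedd9 and Palld, and the square of Tns4 lies to the left of its circle.

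Related genes were also compared with each other. The ratio of their counts per kb within a library does not depend on how libraries are scaled, and 13 pairs of related members were set up, of which 9 had enough counts. At 8 of these 9 pairs the ratios of the groups did not overlap. No such share was computed for other pairs of genes, so this count has no background beside it. Among all single genes tested the groups did not overlap at 49.0%. The exact permutation test (2-sided) gave p = 0.10 at each of these 8 pairs, the smallest value that 3 against 3 libraries can give, and 0.112 after Benjamini-Hochberg adjustment over the 9 pairs, so that none can pass at 0.05. The ratio of Fermt2 to Fermt1 was 1.06, 1.17 and 1.11 in control medium and 0.205, 0.259 and 0.257 with NETs. The kindlin genes thus stood close to even before and apart after, and the ratio was 4.66-fold lower. The ratio of Nedd9 to Bcar1 was 0.0935, 0.0903 and 0.0990 in control medium and 0.543, 0.507 and 0.541 with NETs, 5.63-fold higher.

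Among the filament genes the ratios lay further toward Tpm1, Actn1 and Myh9 in every NETs library than in any control library. The ratio of Tpm1 to Tpm4 was 0.777, 0.756 and 0.800 in control medium and 1.32, 1.38 and 1.35 with NETs, 1.74-fold higher. Tpm1 thus had fewer counts per kb than Tpm4 in every control library and more in every NETs library. This crossing rests on the exon lengths of the deposited table (6485 and 4269 bases). Before division by length Tpm1 had more counts than Tpm4 in all 6 libraries. The ratio of Actn1 to Actn4 was 1.29, 1.35 and 1.26 in control medium and 1.88, 1.73 and 1.84 with NETs. The ratio of Myh10 to Myh9 was 0.559, 0.545 and 0.569 in control medium and 0.440, 0.425 and 0.451 with NETs. Actn1 thus stood above Actn4, and Myh9 above Myh10, in all 6 libraries, by more with NETs. The ratio of Tns4 to Tns3 was 8.92, 9.11 and 9.45 in control medium and 4.64, 5.29 and 5.23 with NETs, 1.82-fold lower. The ratio of Parvb to Parva was 0.538, 0.529 and 0.555 in control medium and 0.778, 0.786 and 0.790 with NETs. Parva kept more counts per kb than Parvb in all 6 libraries. The ratio of Tpm2 to Tpm4 was 0.0107, 0.0119 and 0.00886 in control medium and 0.0132, 0.0139 and 0.0138 with NETs, and that of Enah to Vasp, the pair with overlapping groups, 0.105, 0.0921 and 0.109 in control medium and 0.0998, 0.113 and 0.105 with NETs (exact permutation p = 0.70). The pairs of Myl9, Tagln, Cnn1 and Tgfb1i1 with their relatives were not computed, because these genes had under 6 counts in a library.

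**Figure D3:**
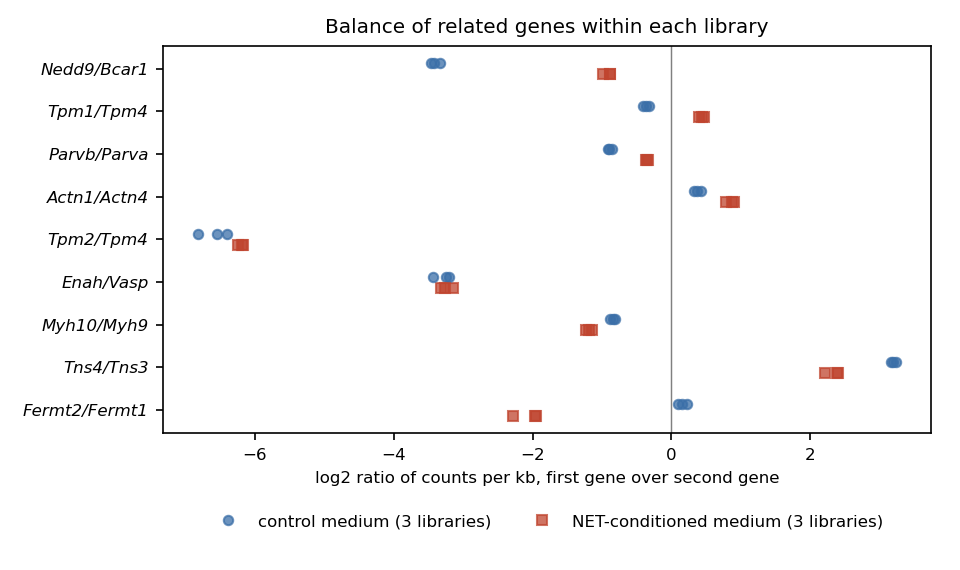
Log2 ratio of counts per kb of related members within each library, first gene over second gene, with control libraries as blue circles and NETs libraries as red squares. Values above 0 mean that the first gene had more counts per kb; the groups overlap at Enah/Vasp alone among the 9 pairs, and Tpm1/Tpm4 and Fermt2/Fermt1 lie on different sides of 0 in the 2 media.

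Other genes of the adhesion and contraction machinery, taken from lists chosen by function, moved both ways. Of 31 further adhesion components 27 were tested, and 10 rose and 6 fell (median log2 fold change 0.11). Over all genes tested 20.2% were called higher and 18.7% lower. Fblim1, the gene of the filamin-binding protein migfilin, rose 1.93-fold from 123 ± 8.59 to 238 ± 4.80 CPM (adjusted p = 3.33e-10). Ajuba, a LIM protein gene, rose 1.76-fold to 180.2 ± 3.67 CPM (adjusted p = 2.09e-09). Tns2, the remaining tensin gene, was 1.92-fold lower, with 181 ± 3.18 CPM in the control libraries and 94.1 ± 4.501 CPM in the NETs libraries (adjusted p = 1.36e-10). With Tns4 lower and Tns1 and Tns3 higher, the 4 tensin genes were evenly divided. Lpxn, the gene of the paxillin relative leupaxin, was 3.70-fold lower on few counts (40, 19 and 20 in control medium, and 4, 2 and 10 with NETs; adjusted p = 0.00656), a call that was lost without control replicate 1 (0.0514).

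A second list held SRF, its MRTF cofactors, which respond to free actin, and other actin filament genes. Of 16 genes 10 were tested, and 6 rose and 1 fell (median log2 fold change 0.42), beside 20.2% higher and 18.7% lower over all genes tested. Fhl2, a LIM protein gene, rose 1.61-fold to 68.9 ± 1.84 CPM (adjusted p = 1.59e-06), Cnn3, the third calponin gene, 1.53-fold to 270.0 ± 8.85 CPM (adjusted p = 4.71e-08) and Smtn, the smoothelin gene, 1.48-fold to 139.7 ± 5.61 CPM (adjusted p = 4.03e-07). The genes named next were picked with their values in view. Actb, the cytoplasmic beta-actin gene, rose 1.46-fold from 2150 ± 110 to 3132 ± 240 CPM (adjusted p = 2.56e-06), while Actg1, the gamma-actin gene, had 449.6 ± 3.11 and 426 ± 27.9 CPM (adjusted p = 0.267). The cofactor gene Mrtfa rose 1.44-fold to 79.5 ± 4.37 CPM (adjusted p = 1.90e-06). Srf itself was the gene that fell, from 49.1 ± 0.551 to 43.8 ± 1.89 CPM (adjusted p = 0.0273), and it was not called without control replicate 1, control replicate 3, NETs replicate 1 or NETs replicate 2.

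**Figure D4:**
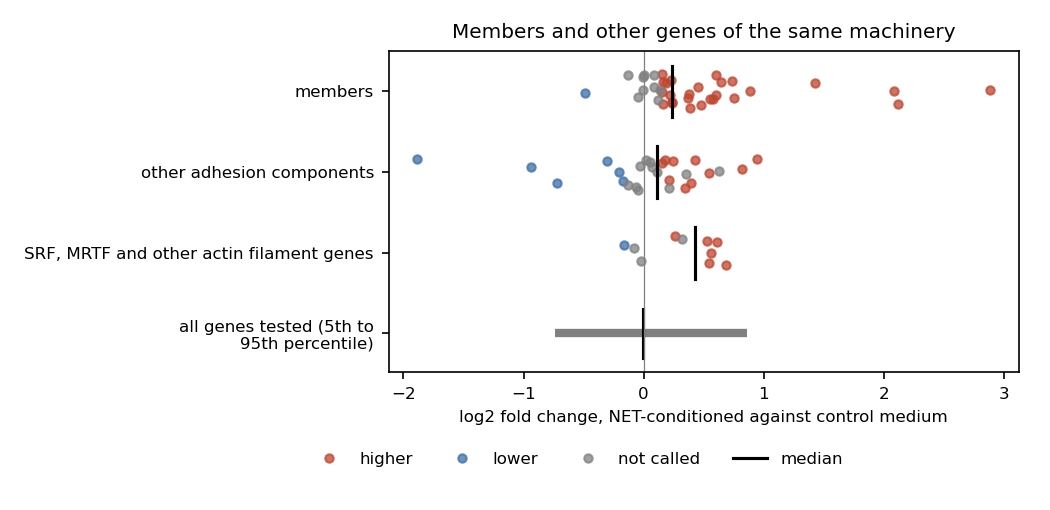
Log2 fold change of every tested gene of the members and of 2 further lists (points, red where called higher, blue where called lower, grey where not called), with the median of each list as a black line. The grey bar spans the 5th to the 95th percentile of all genes tested, from -0.741 to 0.86; the 4 members beyond 1 are Nedd9, Palld, Fermt1 and Pdlim7.

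An exact CArG box, the site that SRF binds, was found in 4 of the 45 promoter windows of the members, 1 in each of 4 genes. Of all 32851 windows 1.63% held it. Variant spellings of the box were not searched, so a window without an exact match may still hold a variant. The exact matches are shown, in capitals with 10 bases on each side, because SRF and its cofactors are known regulators of contractile genes. They lie at chr10:79988534-79988563 (Cnn2, plus strand), chr14:45530250-45530279 (Fermt2, minus strand), chr2:156775293-156775322 (Myl9, plus strand) and chr14:20929161-20929190 (Vcl, plus strand) of GRCm38.p6.
Cnn2: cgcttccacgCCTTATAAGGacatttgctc
Fermt2: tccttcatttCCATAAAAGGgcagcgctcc
Myl9: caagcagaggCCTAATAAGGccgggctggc
Vcl: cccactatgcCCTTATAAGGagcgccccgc
The boxes of Cnn2 and Vcl hold the same 10 bases. Of these genes Vcl rose by 0.16 on the log2 scale, Cnn2 and Fermt2 did not pass the test, and Myl9 was not tested. None of the 4 members that rose at least 2-fold has this motif in the windows used, which says only that these letters are not there.

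In the deposited table Nedd9 spans positions 41463057 to 41640838 of chromosome 13, Palld 61964467 to 62355724 of chromosome 8, Fermt1 132746309 to 132787826 of chromosome 2, Pdlim7 55643608 to 55661489 of chromosome 13 and Tns4 98956504 to 98980132 of chromosome 11, exons and introns included. The submitters' processing notes name mm10, but the table's spans overlap the GRCm38.p6 positions of 11 of the 42 members, so that the build of these coordinates is not settled and the promoter coordinates above must not be compared with them. Exons of 13 members overlap exons of another gene, at 10% of their exon length or more in 4 (Ilk, Tagln, Vcl and Myl12a).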

How the data were processed

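RNA was isolated on spin columns and sequenced from Illumina Stranded mRNA libraries, per the labels' protocols. The authors deposited raw counts per gene in 1 table, laid out as featureCounts writes it, per the file headers. The submitters' processing notes name STAR 2.7.10a, featureCounts of Subread 2.0.3 and mm10. Strand setting, multi-mapping rule and annotation were not given in the sources used here. In each library 74.8% to 78.4% of the values from 1 to 20 were even, so mates appear to have been counted separately. Exon lengths are those of the deposited table. The counts were filtered with filterByExpr (minimum count 10), scaled by TMM and tested by medium alone in edgeR 4.0.16 (robust glmQLFit, then glmQLFTest; R 4.3.3), adjusting by Benjamini-Hochberg over 13956 genes at a threshold of 0.05. These genes held at least 99.95% of each library. SEs were derived from the fold change and the F statistic. Between replicates of a group chi-square over its degrees of freedom was 9.59 to 25.1, with counts taken as independent. Separately counted mates raise this value, by an amount that was not determined. Each library counted once in the tests. The fit was tested on simulated data. The 42 members, the lists and the tests were chosen with earlier results of these data known. The rule for named genes asked for values by library of members called with a log2 fold change of at least 1 or above 1000 CPM, and of members that carry a comparison of related genes. Of each other list it named the called genes past that fold and the 3 with the smallest p-values. Further members shown by library were chosen after their values were seen. Alternatives were RLE, upper-quartile and library-size scaling, other low-count filters, DESeq2 1.42.0, limma-voom (limma 3.58.1), a replicate block, halved counts and the omission of each library. One further list of genes is not reported here.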

Additional observations from a re-analysis of the deposited data

How the results depend on the processing

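Over the 15 alternatives 4321 to 5869 genes were called, and 22 to 28 members were higher and 1 to 3 lower. Of the 27 called members 22 kept their call wherever they were tested; Vcl, Src, Pdlim5, Csrp1 and Tpm2 lost it in at least 1 alternative. The cause was not tested for any change below. Members called lower numbered 2 with upper-quartile factors, 3 with library size alone and 2 with the replicate block. Whether equal replicate numbers mark paired samples was not settled. Correlations of same-numbered deviations were 0.118, -0.0593 and 0.0564, while differently numbered ones ranged from -0.172 to 0.108. The value of 0.118, for replicates numbered 1, lay just above that range, and the other same-numbered values lay within it. So few values cannot decide whether the samples were paired. With the block 27 members rose and 5682 genes were called. Of the SRF list 2 genes were lower with library size alone, and 0 to 1 with 1 library left out. The sign of Lasp1 turned with upper-quartile factors (-0.0221), library size alone (-0.0674) and no low-count filter (-0.0112). With 1 library left out the log2 fold change ranged from -0.0222 to 0.0081 for Ptk2, from -0.0293 to 0.1782 for Myl12a, from -0.0533 to 0.0281 for Cnn2 and from -0.0248 to 0.0479 for Lasp1, and the log2 ratio of Enah to Vasp changed by -0.0189 to 0.1027. The 6 untested members had at most 14 counts in a library. Among the tested members Tpm2 had the fewest counts and the largest SE. Whether depth limited the calls of tested members was not tested. With 3 libraries a group, changes near 1.1-fold lay at the edge of what was called.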
